A study of Mus musculus with 8 samples.

Results

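Cytokines reach the cells of a sensory ganglion through receptors. A list of 10 receptor genes was followed across 8 RNA-seq libraries of dorsal root ganglia from levels L3-L5 of C57BL/6 mice. The genes were taken by gene symbol from a matrix of 54532 gene rows. All 10 of the listed symbols (Il1r1, Il1rap, Il6ra, Il6st, Lifr, Osmr, Il31ra, Tnfrsf1a, Il4ra and Il17ra) were found, each in 1 row. Every mouse had received an injection of monosodium iodoacetate into a joint, an inhibitor of glycolysis that kills cartilage cells and is used to model osteoarthritis. The MIA group (4 libraries) had nothing further, whereas the MIA_Acu group (4 libraries) was given manual acupuncture at the point ST36 daily for 7 days. The labels name no sex, age or genotype beyond the strain. Ganglia of uninjured mice and of mice with sham needling were not analysed here, so needling cannot be told apart from handling. The comparison asks whether transcripts of neuro-immune signalling in the ganglion differ after acupuncture.

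Cytokine receptors are built from chains that bind a ligand and chains that carry the signal, and several receptors share a chain. IL-6 binds IL-6 receptor alpha (Il6ra) and signals through gp130 (Il6st), which also pairs with the LIF receptor (Lifr) and the oncostatin M receptor (Osmr), while IL-31 uses Il31ra together with Osmr. These class I receptors, and the IL-4 receptor alpha chain (Il4ra), signal through JAK kinases and STAT factors. IL-1 binds Il1r1 and recruits the accessory chain Il1rap, and TNF and IL-17 act on Tnfrsf1a and Il17ra, all of which lead to NF-kB. In sensory ganglia gp130 and the LIF receptor are known as receptors of the response to nerve injury, IL-1, IL-6 and TNF as sensitisers of nociceptors, and the IL-31 and IL-4 receptors as receptors of itch neurons.

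Library totals ran from 32892804 to 40627041 counts, and 18971 genes passed the filter on low counts, all 10 receptor genes among them. The MIA library numbered 4 and the MIA_Acu library numbered 3 carry numbers that match no sample label of their group, so results are given for all 8 libraries and for the 6 libraries numbered 1, 2 and 5. These libraries, and others, also stood apart in their make-up. MIA 4 had the lowest summed level of 12 pan-neuronal markers of its group (7829 CPM, the count scaled to library size, against 9317 to 10365) and the highest of 10 myelinating Schwann markers (25184 CPM, against 6989 to 15947). MIA_Acu 3 had 617 CPM of 8 bone and cartilage markers, against 19.7 to 73.1 CPM in the other libraries, and the lowest myelinating Schwann sum of its group (21005 CPM, against 36115 to 39735). MIA_Acu 2 and MIA_Acu 5 had 358 and 405 CPM of 8 spinal cord glia markers, against 26.8 to 131 CPM in the others, and MIA 2 had 36.9 CPM of 8 skeletal muscle markers, against 389.5 to 5576 CPM. None of the 17 marker lists had a member at 0 in all libraries. The submitters describe 3 groups of 3 mice, whereas 2 groups of 4 libraries were analysed here. No label links a library to its own animal, so the p-values below measure the spread between libraries.

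Per kilobase of transcript, gp130 and the LIF receptor stood far above the other 8 chains. Level in CPM per kilobase of the gene's median transcript length was, as the mean and range over 8 libraries, 198 (171 to 225) for Il6st and 157 (129 to 199) for Lifr. Tnfrsf1a followed at 37.8 (32.1 to 49.6), then Il4ra at 18.4 (14.6 to 21.9), Osmr at 17.8 (14.8 to 22.0), Il1rap at 10.5 (4.72 to 15.6) and Il31ra at 8.69 (5.94 to 12.4). The lowest were Il1r1 at 2.97 (2.49 to 3.59), Il6ra at 1.97 (1.26 to 2.82) and Il17ra at 1.76 (1.03 to 3.02). Ranges of neighbours in this order overlapped except between Lifr and Tnfrsf1a, between Tnfrsf1a and Il4ra, and between Il31ra and Il1r1. With the longest transcript as the length, 6 of the 10 genes kept their place, and Il4ra moved from place 4 to place 7, behind Osmr, Il1rap and Il31ra.

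Between the groups, Il1rap and Il6ra had higher levels in MIA_Acu ganglia, and Il6st, Lifr, Osmr, Il31ra and Il4ra lower ones. In all 8 libraries 0 of the 10 genes passed an adjusted p of 0.05 in edgeR's quasi-likelihood test, as did 0% of the 18971 genes tested. At an unadjusted p under 0.05 there were 4, of which Il1rap and Il6ra were higher (11.2% of all genes were) and Il4ra and Osmr lower (10.6%), 21.8% of all genes in either direction. In the 6 libraries 3 of the 10 passed the adjusted threshold, beside 10.4% of 18941 genes. Il1rap and Il6ra rose, beside 6.22% of all genes, and Il4ra fell, beside 4.14%. At an unadjusted p under 0.05 there were 7 in the 6 libraries, beside 27.8% of all genes. Values of the groups did not overlap for 1 gene in 8 libraries, which was lower in MIA_Acu (5.91% of all genes were, and 10.9% in either direction), and for 3 genes in 6 (32.9%). The median log2 fold change of the 10 genes was -0.13 in 8 libraries and -0.23 in 6, beside 0.02 and -0.0029 over all genes tested.

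The number of receptor genes past the adjusted threshold followed the libraries and the test. In 8 libraries it was 0 in edgeR, and also with no filter on low counts (0.0176% of all genes). DESeq2 called Il6ra and Il4ra, 2 of the 10, beside 9.24% of all genes, and limma voom with sample weights called Il1rap, Il6ra and Il4ra, beside 11.9%. Without MIA 4 it was 2 (Il6ra and Il4ra, beside 6.97%), and with the groups of the 2 unmatched libraries exchanged it was 1 (Il1rap, beside 1.09%). The 3 calls of the 6 libraries rest on few of them: with MIA_Acu 2 or MIA_Acu 5 left out, 0 of the 10 genes passed, as did 0% of all genes. These are the libraries with the highest spinal cord glia sums, whose part in the calls was not tested. Without MIA 1 (3.6% of all genes) or MIA 2 (3.93%) Il1rap alone did. Without MIA 5 (5.06%) the calls were Il1rap, Il6ra and, lower, Il31ra. Without MIA_Acu 1 (14% of all genes) there were 6, with Il6st, Osmr and Il31ra lower beside the 3. Of the other fits of the 6 libraries, 5 genes passed with no filter (7.83%) and by DESeq2 (17.2%), 4 with the strict filter (17.1%) and 3 by limma voom (11.1%). With the library number as a block 4 passed (Il1rap, Il6ra, Osmr and Il31ra, beside 7.85%).

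**Figure D1:**
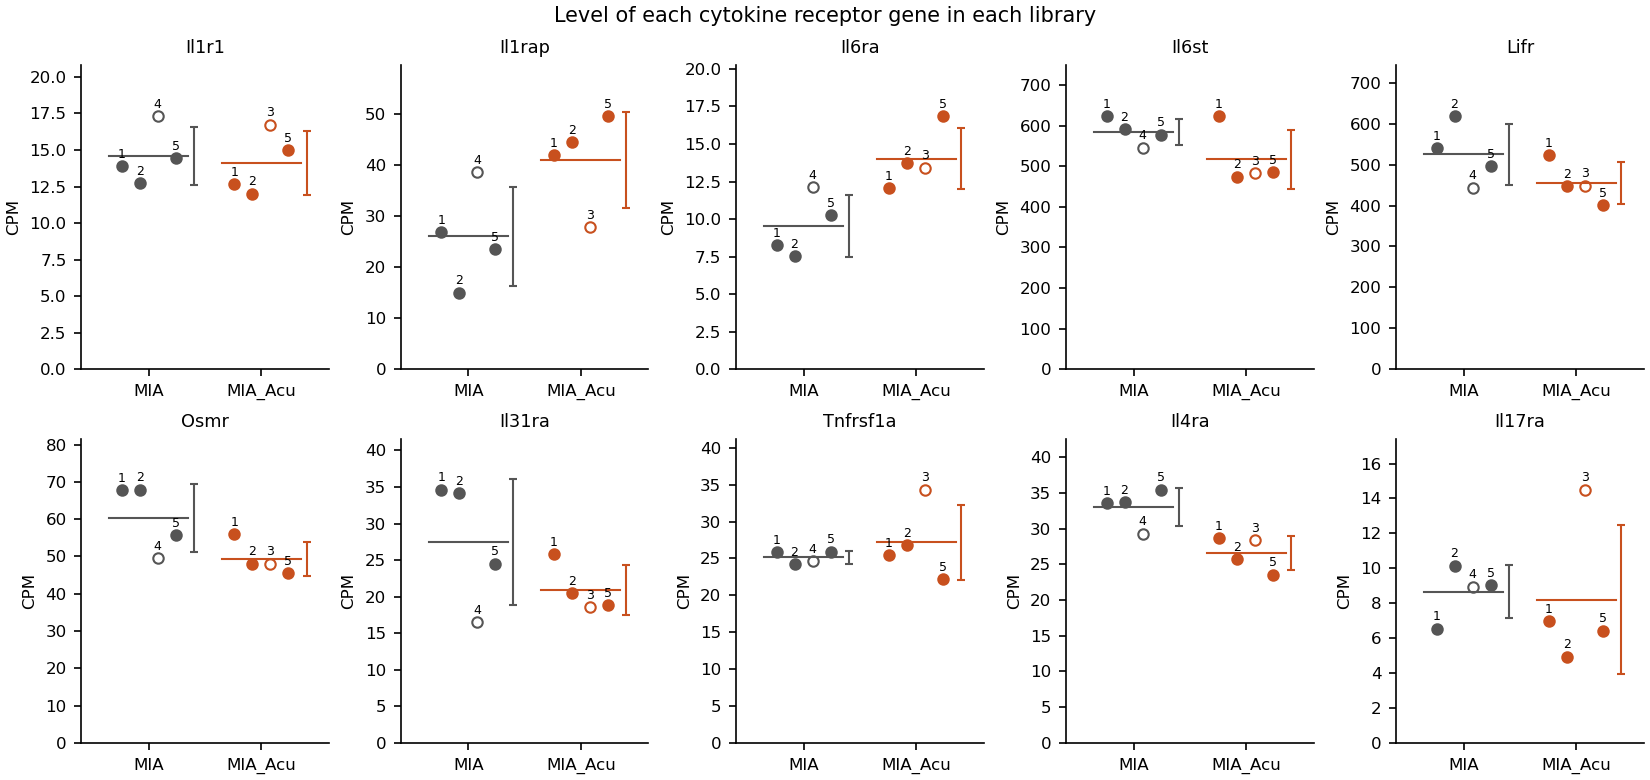
Level of each receptor gene in CPM (y axis, from 0) in the 4 MIA and 4 MIA_Acu libraries, numbered as in their columns. Open points are MIA 4 and MIA_Acu 3, horizontal lines are group means and bars the SD. Il4ra is the gene whose groups do not overlap (29.3 to 35.4 CPM in MIA, 23.6 to 28.6 CPM in MIA_Acu). MIA 4 lies on the MIA_Acu side of its group for Il1rap, Il6ra, Il6st, Lifr, Osmr, Il31ra and Il4ra.

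Of the IL-1 receptor chains, the accessory chain was higher on average in MIA_Acu and the binding chain nearly level. Il1rap (ENSMUSG00000022514), the accessory chain that the receptors of IL-1, IL-33 and IL-36 share, was at 26.8, 15.03, 38.7 and 23.6 CPM in the MIA libraries numbered 1, 2, 4 and 5 and at 41.996, 44.5, 27.8 and 49.7 CPM in the MIA_Acu libraries numbered 1, 2, 3 and 5. The groups overlapped through the 2 libraries without a matching number, MIA 4 being high and MIA_Acu 3 low. Its log2 fold change was 0.66 (SE 0.27, 95% interval 0.06 to 1.25) with an adjusted p of 0.197 in edgeR's test. In the 6 libraries Il1rap rose, with a log2 fold change of 1.05 (SE 0.19) and an adjusted p of 0.0201. If the groups of those 2 libraries are exchanged, as the numbers in the labels would have it, the log2 fold change was 0.91 (adjusted p = 0.0486).

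Il1r1 (ENSMUSG00000026072), which binds IL-1, was at 13.9, 12.7, 17.3 and 14.4 CPM in MIA and at 12.7, 12.0, 16.7 and 15.01 CPM in MIA_Acu. The groups covered nearly the same range, and the highest value of each was in MIA 4 and MIA_Acu 3. The fitted difference was -0.05 (log2) with a 95% interval from -0.35 to 0.26 (edgeR, adjusted p = 0.867). Set against Il1r1 per transcript length, Il1rap was at 293, 179, 339 and 248% in MIA and at 503, 562, 252 and 502% in MIA_Acu. The 3 MIA_Acu libraries with matching numbers thus lay above each MIA library, and MIA_Acu 3 lay within the MIA range.

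Myelinating Schwann markers followed the same order of libraries as Il1rap in their extremes. All 10 of them were higher in MIA_Acu, 9 with an unadjusted p under 0.05, beside 11.2% of all genes. Their sum was 6989 to 25184 CPM in MIA and 21005 to 39735 CPM in MIA_Acu. MIA 4 held the highest sum of its group and MIA_Acu 3 the lowest of its own, as for Il1rap. Per 1000 CPM of these markers, Il1rap was at 1.75 ± 0.309 CPM for MIA and 1.23 ± 0.0736 CPM for MIA_Acu (SD, n = 4), and the groups did not overlap, with MIA_Acu the lower on this scale. The part of Schwann transcripts in the higher Il1rap level was not tested. In bulk tissue, fewer cells of a type and less RNA per cell cannot be told apart.

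Among the IL-6 family the ligand-binding chain Il6ra had a higher mean in MIA_Acu, and the chains Il6st and Lifr lower ones. Il6ra (ENSMUSG00000027947) was at 8.25, 7.54, 12.1 and 10.3 CPM in MIA and at 12.1, 13.7, 13.4 and 16.9 CPM in MIA_Acu. MIA 4 and MIA_Acu 1 touched, and the other libraries of the groups were apart. The log2 fold change was 0.55 (SE 0.17, 95% interval 0.18 to 0.93, edgeR adjusted p = 0.125) in 8 libraries, and in the 6 libraries Il6ra rose by a log2 fold change of 0.70 with an SE of 0.17 and an adjusted p of 0.0397. Without MIA 4 alone it passed as well, with an adjusted p of 0.0433.

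The gp130 gene Il6st (ENSMUSG00000021756) was at 623, 591, 546 and 577 CPM in MIA and at 624, 474, 484 and 485 CPM in MIA_Acu. Of the MIA_Acu libraries 3 lay below each MIA library, and MIA_Acu 1 was level with the highest of them. Its log2 fold change was -0.18 (95% interval -0.40 to 0.05, edgeR adjusted p = 0.332), and -0.19 in the 6 libraries. As a share of Il6st per transcript length, Il6ra was at 0.614, 0.591, 1.03 and 0.826% in MIA and at 0.897, 1.34, 1.29 and 1.61% in MIA_Acu. MIA_Acu 1 lay below MIA 4 in this ratio, and the groups of the 6 libraries did not overlap. The percentages rest on median transcript lengths of 2778 bases for Il6st and 5991 for Il6ra. With the longest transcripts (8678 and 8639 bases) they would be higher, by the same factor in every library.

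Lifr (ENSMUSG00000054263), through which LIF and CNTF act, was at 539.9, 619, 444 and 496 CPM in MIA and at 523, 448, 449 and 401 CPM in MIA_Acu. The groups overlapped, with MIA 4 as low as the MIA_Acu libraries and MIA_Acu 1 within the MIA range. Its log2 fold change was -0.21 (95% interval -0.47 to 0.06, edgeR adjusted p = 0.333). Lifr kept nearly the same proportion to Il6st in both groups, at 79.9 ± 9.17% in MIA and 78.8 ± 5.4% in MIA_Acu (SD, n = 4).

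**Figure D2:**
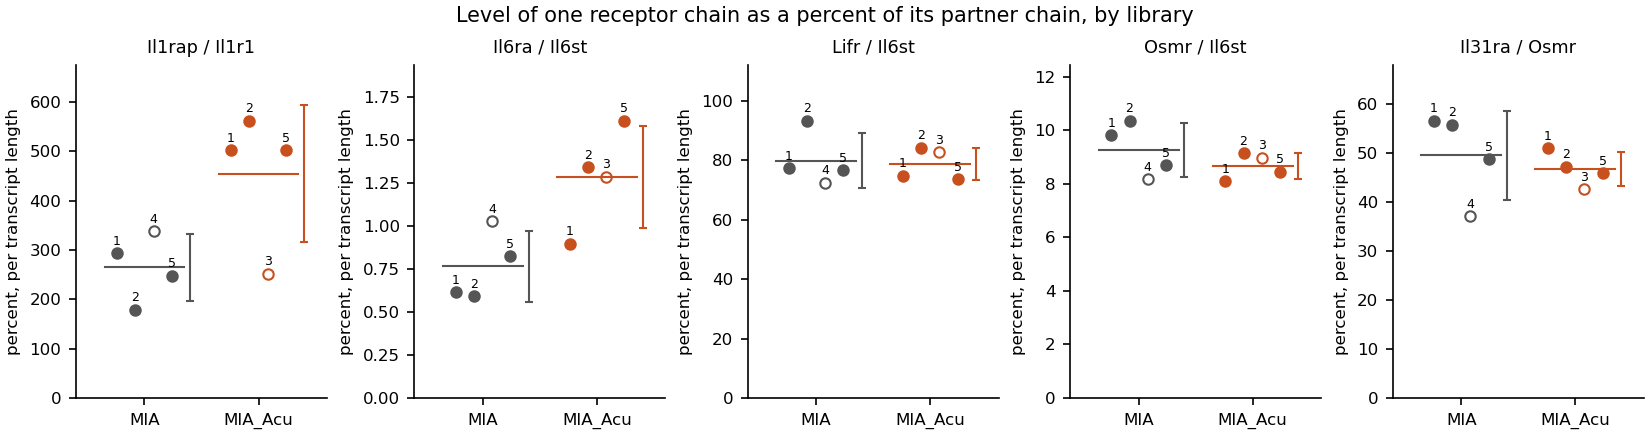
Level of a receptor chain as a percent of its partner chain, each per median transcript length (y axes, from 0), in every library. Points, lines and bars are as in the plot of levels. Another choice of transcript length would change all percentages of a pair by the same factor. Il1rap against Il1r1 and Il6ra against Il6st are higher in most MIA_Acu libraries, with means of 265% and 455% and of 0.765% and 1.28%, while the other 3 ratios overlap throughout.

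Osmr and Il31ra make up the IL-31 receptor, and both had lower values in MIA_Acu. Osmr (ENSMUSG00000022146) was at 67.8, 67.9, 49.5 and 55.8 CPM in MIA and at 56.0, 48.0, 48.1 and 45.5 CPM in MIA_Acu. Its log2 fold change was -0.29 (SE 0.11, 95% interval -0.54 to -0.03, edgeR adjusted p = 0.19), and -0.36 in the 6 libraries (adjusted p = 0.0652), not past the threshold in either. Il31ra (ENSMUSG00000050377), the chain that sets IL-31 apart, was at 34.6, 34.2, 16.5 and 24.5 CPM in MIA and at 25.8, 20.5, 18.5 and 18.8 CPM in MIA_Acu. MIA 4 was the lowest of all 8 libraries for Il31ra, and MIA_Acu 1 was the highest of its group for both genes. The log2 fold change of Il31ra was -0.39 (SE 0.22, 95% interval -0.89 to 0.10, edgeR adjusted p = 0.323) and -0.53 in the 6 libraries (adjusted p = 0.0761).

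The proportion of the IL-31 receptor chains differed little. Il31ra was at 56.5, 55.7, 37.0 and 48.7% of Osmr per transcript length in MIA and at 51.0, 47.2, 42.6 and 45.8% in MIA_Acu, with MIA 4 the lowest. An annotated pseudogene on the same strand, Gm3226, overlaps Il31ra and held 47 to 105 counts per library, so some reads of Il31ra may have been assigned to it. In the GRCm38 annotation Il31ra lies next to Il6st on chromosome 13 and Osmr next to Lifr on chromosome 15, with 0 protein-coding genes between them.

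Il4ra (ENSMUSG00000030748), which pairs with the common gamma chain or with Il13ra1 to bind IL-4 and IL-13, was at 33.6, 33.7, 29.3 and 35.4 CPM in MIA and at 28.6, 25.7, 28.4 and 23.6 CPM in MIA_Acu. Each MIA_Acu library lay below each MIA library, the closest being MIA 4 and MIA_Acu 1. Among the 10 genes it had the smallest p in 8 libraries, with a log2 fold change of -0.31 (SE 0.09, 95% interval -0.51 to -0.11, edgeR adjusted p = 0.118). In the 6 libraries Il4ra fell, by a log2 fold change of -0.41 in the fit (SE 0.09) at an adjusted p of 0.0308, and without MIA 4 alone its adjusted p was 0.0458.

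Markers of sensory neurons were lower beside these chains. All 12 pan-neuronal markers had lower values in MIA_Acu, 11 with an unadjusted p under 0.05, beside 10.6% of all genes. Their sum was 7829 to 10365 CPM in MIA and 6769 to 8224 CPM in MIA_Acu. Of 8 markers of itch neurons 7 were lower, 3 with an unadjusted p under 0.05, beside the same 10.6%. The sums of this list were 811 to 1077 CPM and 699.8 to 908 CPM. The largest part of these sums was Jak1, 1 of the 3, at 467 ± 40.5 CPM for MIA and 383 ± 38.3 CPM for MIA_Acu. Nppb was nearly level, at 6.55 ± 1.84 and 6.30 ± 1.89 CPM, and Sst was the 1 higher, at 3.45 ± 1.14 and 4.22 ± 1.70 CPM. Nts had the smallest p of the list and was lower, at 13.6 ± 3.72 and 6.04 ± 2.23 CPM, with no overlap of the groups. The members of the list thus differed in size and direction, and a difference in itch neurons was not tested. Per 1000 CPM of the pan-neuronal markers, a ratio chosen after the values were seen, Osmr was at 6.53 ± 0.558 CPM for MIA and 6.82 ± 0.0771 CPM for MIA_Acu (SD, n = 4). On the same scale Il31ra was at 2.94 ± 0.711 and 2.87 ± 0.206 CPM, and Il4ra at 3.59 ± 0.242 and 3.67 ± 0.278 CPM. Relative to neuronal transcripts the groups of all 3 genes overlapped, and their means differed by less than the SD of the MIA libraries. Groups of Osmr and Il31ra overlapped in CPM too. For Il31ra the CPM means also differed by less than that SD (27.5 ± 8.65 and 20.9 ± 3.37 CPM). On the pan-neuronal scale Il6st was at 63.8 ± 5.62 and 71.1 ± 3.55 CPM and Lifr at 56.9 ± 2.84 and 62.8 ± 2.4 CPM, higher in MIA_Acu on average. The part of neuronal transcripts in these levels was not tested.

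**Figure D3:**
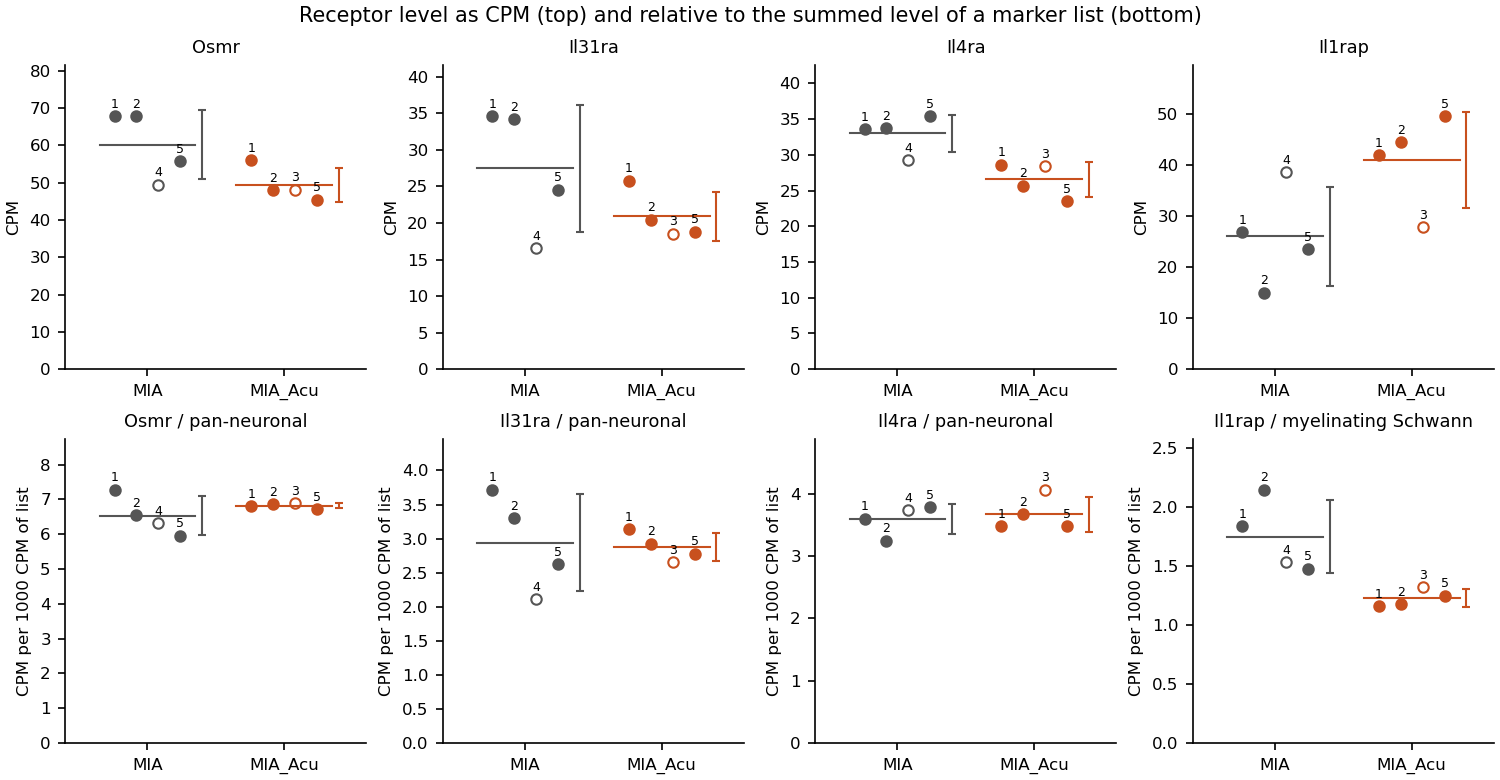
Osmr, Il31ra, Il4ra and Il1rap in CPM (top row) and per 1000 CPM of the summed pan-neuronal or myelinating Schwann markers (bottom row), with y axes from 0 and points, lines and bars as in the plot of levels. Osmr, Il31ra and Il4ra overlap between the groups beside the neuronal markers, and Osmr and Il31ra do so in CPM too. Il1rap is lower in MIA_Acu beside the Schwann markers (1.16 to 1.32 CPM against 1.48 to 2.15 CPM).

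The higher level of Il6ra stood beside other markers. Its values per 1000 CPM of 10 endothelial markers were 35.3 ± 5.77 CPM for MIA and 37.1 ± 8.85 CPM for MIA_Acu (SD, n = 4), whereas per 1000 CPM of 8 satellite glia markers they were 2.66 ± 0.442 and 3.49 ± 0.504 CPM. Per 1000 CPM of the pan-neuronal markers Il6ra was at 1.06 ± 0.356 and 1.96 ± 0.419 CPM, higher in MIA_Acu, and per 1000 CPM of macrophage markers at 39.8 ± 5.49 and 48.6 ± 18.7 CPM. Per 1000 CPM of the myelinating Schwann markers it was lower in MIA_Acu, at 0.693 ± 0.266 and 0.440 ± 0.138 CPM. The direction of Il6ra thus depended on the list it was set against. All 10 endothelial markers were higher in MIA_Acu with an unadjusted p under 0.05, beside 11.2% of all genes. Their sums of 238 to 291 CPM and 342 to 455 CPM did not overlap. Sums of 12 macrophage markers were 211 to 269.7 CPM in MIA and 226 to 443 CPM in MIA_Acu, and all 12 had higher values. Which cells hold the receptor transcripts was not tested.

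The receptors of TNF and IL-17 showed no common shift. Tnfrsf1a (ENSMUSG00000030341), the main TNF receptor of most cells, was at 25.8, 24.2, 24.7 and 25.9 CPM in MIA and at 25.4, 26.8, 34.3 and 22.2 CPM in MIA_Acu. Il17ra (ENSMUSG00000002897), the chain common to IL-17 receptors, was at 6.55, 10.1, 8.94 and 9.05 CPM in MIA and at 6.96, 4.95, 14.5 and 6.44 CPM in MIA_Acu. MIA_Acu 3, the library with the most bone and cartilage transcripts, was the highest of all 8 for both genes. It also had the most transcripts of 8 neutrophil and marrow markers (913 CPM, against 176 to 515 CPM in the others).

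The log2 fold change of Tnfrsf1a was 0.11 (95% interval -0.16 to 0.38, edgeR adjusted p = 0.63) in 8 libraries and -0.04 in the 6. For Il17ra it was -0.08 (95% interval -0.77 to 0.61, edgeR adjusted p = 0.908) in 8 libraries and -0.50 (adjusted p = 0.158) in the 6. Without MIA_Acu 3 alone the log2 fold change of Il17ra was -0.51. The spread of Il17ra over the MIA_Acu libraries was the widest of the 10 genes, with a coefficient of variation of 52.1%, and that of Tnfrsf1a over the MIA libraries the narrowest, at 3.37%.

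**Figure D4:**
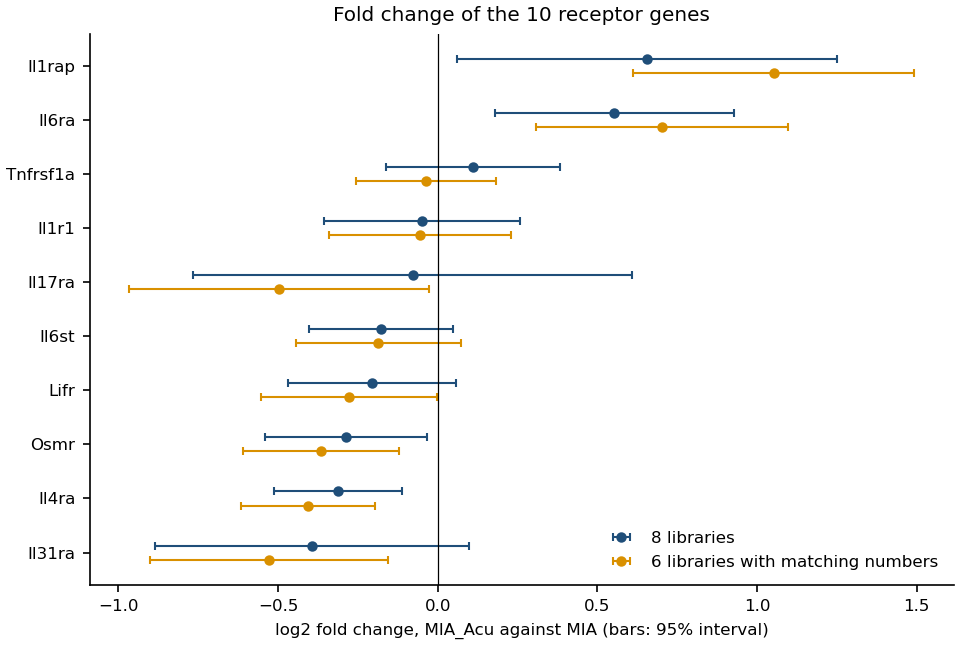
Log2 fold change of MIA_Acu against MIA (x axis) for the 10 receptor genes in 8 libraries and in the 6 libraries with matching numbers, with 95% intervals of the edgeR fit as bars. Intervals of Il1rap, Il6ra, Osmr and Il4ra lie to 1 side of 0 in both fits, before any adjustment for the number of genes, and the estimate of Il17ra moves from -0.08 to -0.50.

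Within the groups, single libraries were the extreme for several genes at once. MIA 4 was the lowest of its group for Il6st, Lifr, Osmr, Il31ra and Il4ra and the highest for Il1r1, Il1rap and Il6ra. In its own group MIA_Acu 1 was the highest for the same 5 genes and the lowest for Il6ra, while the lowest Il1r1 was in MIA_Acu 2 and the lowest Il1rap in MIA_Acu 3. Tnfrsf1a and Il17ra had no extreme in MIA 4 or MIA_Acu 1. The pan-neuronal sum was lowest in MIA 4 among MIA libraries and highest in MIA_Acu 1 (8224 CPM) among MIA_Acu libraries. Over all 8 libraries the highest value of a gene was 1.32 times the lowest for Il6st and 3.31 times for Il1rap.

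Upstream sequences are shown for the 5 genes with the largest differences, since they bear on whether genes that differed in the same direction share a recognisable promoter element. They are the 250 bases before the RefSeq start site (build GRCm38.p6), and 9 of the 10 receptor genes had an entry. Capitals mark matches, on either strand, to the STAT palindrome TTCNNNGAA, its form with a spacer of 4 bases, the AP-1 site TGANTCA, the RUNX core TGTGGT or the E-box CACGTG.
Il1rap, chr16:26581455-26581704, plus strand: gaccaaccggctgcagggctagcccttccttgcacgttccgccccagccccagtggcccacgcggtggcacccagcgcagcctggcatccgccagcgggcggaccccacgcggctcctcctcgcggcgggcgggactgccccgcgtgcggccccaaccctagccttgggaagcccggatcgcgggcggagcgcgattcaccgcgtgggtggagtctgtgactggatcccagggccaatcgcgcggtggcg
Il6ra, chr3:89913197-89913446, minus strand: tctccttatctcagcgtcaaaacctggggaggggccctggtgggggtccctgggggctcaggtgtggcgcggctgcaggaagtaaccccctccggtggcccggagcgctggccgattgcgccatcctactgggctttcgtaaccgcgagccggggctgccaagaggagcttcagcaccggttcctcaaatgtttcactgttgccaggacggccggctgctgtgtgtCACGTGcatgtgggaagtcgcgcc
Il4ra, chr7:125552021-125552270, plus strand: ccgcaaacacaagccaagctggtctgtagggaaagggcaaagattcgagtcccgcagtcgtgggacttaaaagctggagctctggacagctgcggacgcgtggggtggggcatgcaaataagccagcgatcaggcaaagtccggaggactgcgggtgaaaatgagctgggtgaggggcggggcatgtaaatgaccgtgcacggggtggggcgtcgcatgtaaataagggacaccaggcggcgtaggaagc
Osmr, chr15:6874314-6874563, minus strand: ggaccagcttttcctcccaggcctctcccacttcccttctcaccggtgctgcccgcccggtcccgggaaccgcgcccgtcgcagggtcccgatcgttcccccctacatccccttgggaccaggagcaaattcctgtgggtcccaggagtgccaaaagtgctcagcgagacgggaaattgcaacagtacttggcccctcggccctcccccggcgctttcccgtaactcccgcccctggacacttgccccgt
Il31ra, chr13:112580663-112580912, minus strand: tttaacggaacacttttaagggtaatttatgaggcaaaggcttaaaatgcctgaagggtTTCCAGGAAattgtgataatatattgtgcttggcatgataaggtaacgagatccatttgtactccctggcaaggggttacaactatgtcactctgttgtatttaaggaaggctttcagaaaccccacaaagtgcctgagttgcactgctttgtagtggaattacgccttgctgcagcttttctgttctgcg
Il31ra held 1 match to TTCNNNGAA, which starts 191 bases before the start site and is found in 7.02% of 32841 windows of the same length. The window of Tnfrsf1a, not shown, also held this motif, 244 bases before its start, and its log2 fold change in 8 libraries was 0.11. Il6ra held a CACGTG 24 bases before its start (6.02% of windows). None of these 5 motifs was found in the windows of Il1rap, Il4ra and Osmr, so the chains of the IL-31 receptor have no match in common. The Il31ra window was poor in G and C (42% of bases, 4 CpG), that of Il1rap rich (74.4%, 30 CpG), beside a median of 52.4% over all windows.

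Other genes of cytokine signalling showed scattered differences. Of 132 tested genes on 10 lists of cytokine signalling (151 genes listed), 31 were higher and 7 lower in MIA_Acu at an unadjusted p under 0.05, beside 11.2% and 10.6% of all genes, and 0 passed when adjusted in 8 libraries. Most of the 31 were not receptors: 12 were adaptors, 7 JAK, STAT and SOCS genes and 4 genes of receptor processing and release. Within the 6 libraries 18 rose and 3 fell past the adjusted threshold, beside 6.22% and 4.14% of all genes. The median log2 fold change of these 132 genes was 0.15 in 8 libraries, against 0.02 over all genes.

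Receptors of the IL-1 family (7 tested) held 1 gene higher and 0 lower at that p, beside 11.2% and 10.6% of all genes. Il1rl2, the IL-36 receptor that also uses Il1rap, was at 2.17 ± 0.776 CPM for MIA and 3.96 ± 0.31 CPM for MIA_Acu (SD, n = 4), a log2 fold change of 0.87 (edgeR adjusted p = 0.112), and rose in the 6 libraries (adjusted p = 0.0185). The decoy receptor Il1r2 was at 1.04 ± 0.331 and 0.615 ± 0.209 CPM, and Il1rl1, the receptor of IL-33, at 1.16 ± 0.108 and 2.03 ± 0.962 CPM, neither past the threshold in any of these fits. Of 9 tested class I receptors related to gp130, 1 was higher and 0 lower, beside the same shares of all genes. Il11ra1, the IL-11 receptor, was at 18.8 ± 3.3 and 25.7 ± 2.03 CPM (adjusted p = 0.119) and rose in the 6 libraries (adjusted p = 0.028). Cntfr, which brings CNTF to Lifr and gp130, was at 40.3 ± 3.43 and 36.0 ± 1.65 CPM, with 0.238 ± 0.103 and 0.576 ± 0.623 CPM for Il12rb1.

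None of 12 tested chains of the common gamma and beta families differed at that p, beside 21.8% of all genes. Among them Il13ra1, the partner of Il4ra, was at 14.4 ± 1.24 CPM for MIA and 12.5 ± 2.16 CPM for MIA_Acu (SD, n = 4). The smallest p of this list was that of Il21r (1.04 ± 0.334 and 1.5 ± 0.32 CPM), and the growth factor receptor Csf2ra was at 15.1 ± 1.42 and 17.2 ± 2.92 CPM. Of 8 interferon and class II receptors 2 were higher, beside 11.2% of all genes. They were the interferon gamma receptor Ifngr1 at 34.7 ± 3.5 and 42.4 ± 3.3 CPM and Il10rb at 32.9 ± 1.64 and 39.0 ± 3.79 CPM. In the 6 libraries Il10rb rose (adjusted p = 0.0384) and Ifnlr1, at 2.12 ± 0.196 and 1.35 ± 0.649 CPM in all 8, fell (adjusted p = 0.0413).

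The TNF receptor family had 3 genes higher and 3 lower of 14 at an unadjusted p under 0.05, beside 11.2% and 10.6% of all genes. Ltbr, the lymphotoxin beta receptor, was at 14.5, 11.1, 15.4 and 14.0 CPM in MIA and at 20.5, 22.0, 17.9 and 22.7 CPM in MIA_Acu. Tnfrsf19 was at 9.62, 8.92, 7.57 and 8.21 CPM in MIA and at 14.2, 13.7, 20.2 and 12.4 CPM in MIA_Acu. For both genes each MIA_Acu library lay above each MIA library (edgeR adjusted p = 0.0881 for each), and both rose in the 6 libraries (adjusted p = 0.0193 and 0.0251). Tnfrsf21, a death receptor of neurons, had the third smallest p and was lower, at 241 ± 28.3 and 194 ± 15.9 CPM (adjusted p = 0.126). Of the 4 other IL-17 receptor genes 1 was higher at that p, beside 11.2% of all genes. It was Il17rb, the receptor of IL-25, at 4.52 ± 1.33 and 7.65 ± 2.33 CPM (adjusted p = 0.162), which rose in the 6 libraries (adjusted p = 0.0276). Il17rd (12.0 ± 0.855 and 12.5 ± 0.667 CPM) and Il17rc (7.23 ± 1.26 and 6.71 ± 1.31 CPM) had unadjusted p of 0.53 and 0.581.

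**Figure D5:**
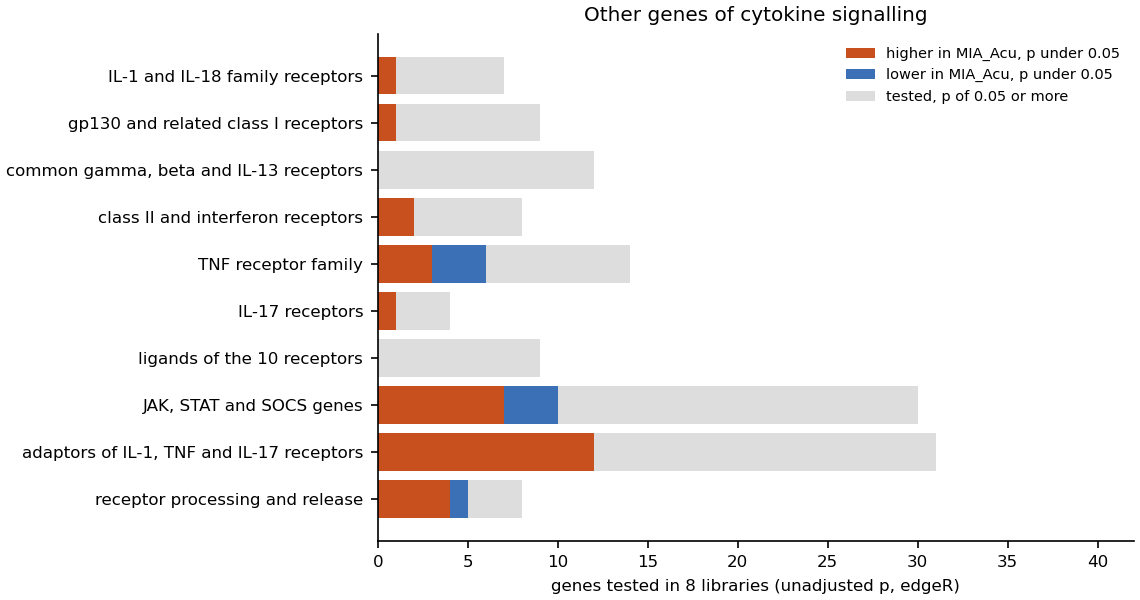
Number of tested genes (x axis) on 10 lists of cytokine signalling with an unadjusted p under 0.05 in 8 libraries, higher (orange) or lower (blue) in MIA_Acu, and with a p of 0.05 or more (grey). The adaptor list has 12 genes higher and 0 lower of 31, beside 11.2% and 10.6% of all genes. The lists of ligands and of common gamma and beta chains have 0 in each direction.

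Downstream of the receptors, some kinases and STAT factors were higher in MIA_Acu at an unadjusted p under 0.05. Of 30 JAK, STAT and SOCS genes 7 were higher and 3 lower at that p, beside 11.2% and 10.6% of all genes. The lower ones were thus near the share of all genes. Jak2 was at 43.3 ± 3.91 CPM for MIA and 54.0 ± 4.46 CPM for MIA_Acu (SD, n = 4), Stat4 at 0.402 ± 0.0919 and 0.827 ± 0.116 CPM, and Stat5a at 8.59 ± 1.13 and 11.3 ± 0.803 CPM, and their adjusted p were 0.109, 0.117 and 0.125. Jak1, a kinase of the gp130 receptors and of Il4ra, and Stat3, the main target of the gp130 receptors, were named after their values were seen. Jak1 was at 489, 503, 411 and 464 CPM in MIA and at 416, 334, 412 and 371 CPM in MIA_Acu (edgeR adjusted p = 0.146), and fell in the 6 libraries (adjusted p = 0.0389). Stat3 was at 361 ± 31.6 and 294 ± 30.1 CPM (adjusted p = 0.137). Per 1000 CPM of the pan-neuronal markers Jak1 was at 50.8 ± 2.05 and 53.0 ± 4.92 CPM and Stat3 at 39.3 ± 1.58 and 40.6 ± 1.43 CPM.

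Adaptors of the IL-1, TNF and IL-17 receptors had 12 genes higher and 0 lower of 31 at an unadjusted p under 0.05, beside 11.2% and 10.6% of all genes, with a median log2 fold change of 0.15 in 8 libraries. Markers of non-neuronal cells were higher beside them. All 10 fibroblast markers (6 at that p) and all 9 mural markers (6 at that p) were higher in MIA_Acu. Fibroblast sums were 644 to 2032 CPM in MIA and 2410 to 5870 CPM in MIA_Acu, and mural sums 333 to 419.7 CPM and 421 to 584 CPM, with no overlap of the groups, as for the 10 endothelial markers. The part of these cells in the adaptor levels was not tested. The smallest p were those of Traf1, which TNF receptors recruit (6.32 ± 1.64 CPM for MIA and 10.4 ± 1.76 CPM for MIA_Acu, SD, n = 4), of Myd88, the adaptor of the IL-1 receptor (7.95 ± 1.02 and 10.7 ± 1.18 CPM), and of Traf5 (2.11 ± 0.162 and 3.02 ± 0.218 CPM). Their adjusted p were 0.114, 0.13 and 0.136, and of the 3 Traf1 rose in the 6 libraries (adjusted p = 0.0217). Among 8 genes of receptor processing and release, 4 were higher and 1 lower at an unadjusted p under 0.05, beside 11.2% and 10.6% of all genes. Adam17, the protease that sheds TNF, its receptors and IL-6 receptor alpha, was at 43.3, 37.8, 58.8 and 53.2 CPM in MIA and at 69.9, 74.7, 68.2 and 71.6 CPM in MIA_Acu. Each MIA_Acu library lay above each MIA library (log2 fold change 0.56, SE 0.12, edgeR adjusted p = 0.0881), and Adam17 rose in the 6 libraries (adjusted p = 0.0189). Bace1 was at 114 ± 5.86 and 97.3 ± 4.79 CPM and Rhbdf1, which helps Adam17 to mature, at 27.4 ± 4.95 and 36.7 ± 6.42 CPM.

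Of the ligands of the 10 receptors, 10 of 19 genes had too few counts to be tested, whereas Il4 had 461 to 750 counts per library and Il33 92 to 820. The 9 others passed the filter on low counts. In 8 libraries 0 of them had an unadjusted p under 0.05, beside 21.8% of all genes. In the 6 libraries 2 had one, Lif and Il33, beside 27.8% of all genes. Lif was at 0.791, 0.496, 3.51 and 2.56 CPM in MIA and at 3.08, 3.75, 3.24 and 4.41 CPM in MIA_Acu, a log2 fold change of 0.97 (edgeR adjusted p = 0.305). Il33, an alarmin of the IL-1 family, was at 8.52, 2.4, 15.8 and 10.7 CPM and at 13.3, 22.9, 10.8 and 18.8 CPM (adjusted p = 0.325). In both genes MIA 1 and MIA 2 were the lowest libraries. Il4 was at 16.7 ± 2.01 CPM for MIA and 15.01 ± 1.77 CPM for MIA_Acu (SD, n = 4), while Il13 had at most 3 counts in a library.

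Among the other tested ligands, Ctf1 was at 1.56 ± 0.372 and 2.08 ± 0.241 CPM, Clcf1 at 2.35 ± 0.783 and 3.06 ± 0.569 CPM, Il1rn at 1.11 ± 0.172 and 1.31 ± 0.739 CPM and Il1b at 1.46 ± 0.315 and 1.4 ± 0.933 CPM. Osm (0.283 ± 0.194 and 0.334 ± 0.166 CPM) and Il11 (0.277 ± 0.0598 and 0.3 ± 0.109 CPM) were close to the filter. Below it lay Il1a (1 to 16 counts per library), Il6 (0 to 11), Cntf (2 to 17), Tnf (4 to 12), Lta (0 to 10), Il17f (0 to 3) and Il17c (0 to 2). Il31 and Il17a had 0 counts in every library, which allows up to 0.0738 to 0.0913 CPM (3 counts per library, for counting error only). Differences of these genes were not detectable at this depth.

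The genes with the profile closest to the 2 receptor genes with the smallest p were found by the root mean square difference of log2 CPM, each gene centred on its mean over the 8 libraries, among 13241 genes. For Il4ra they were Peli3 (0.0445), Bicdl1 (0.0461) and Snx25 (0.0483), against a spread of Il4ra itself of 0.19. For Il6ra they were Prickle1 (0.0515), Dynlt1-ps1 (0.0801) and Rbms2 (0.0953), against a spread of 0.36. These are descriptions over 8 libraries that also carry the group difference.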

How the data were processed

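The deposited table holds raw counts per Ensembl gene, as whole numbers, with the authors' gene symbols. RNA was extracted with TRIzol and poly(A) libraries were built with a NEBNext Ultra kit, per the labels' protocols, and FastQC, Trimmomatic and build GRCm39 (mm39) are named in the submitters' processing notes. For the aligner, counter, strand setting and annotation release, the entry is "not given in the sources used here". Overlapping or antisense genes may therefore share reads. Groups were taken from column names. Within groups, each pair of libraries differed beyond counting error (chi-square per degree of freedom of 17.9 or more).

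Counts were tested with edgeR 4.0.16 in R 4.3.3 (glmQLFit and glmQLFTest, filterByExpr with a minimum count of 10 and a minimum total of 15, TMM normalization, group as the only term), with Benjamini-Hochberg adjustment over all genes and a threshold of 0.05. For log2 CPM the prior count was 2, and all CPM rest on TMM-scaled totals. Standard errors come from the F statistic, and 95% intervals from the t distribution of the fit. Transcript lengths, neighbours and overlaps are from GENCODE M21 (GRCm38), and upstream sequences from RefSeq. Alternatives used DESeq2 1.42.0 and limma 3.58.1. The test was tested on simulated counts.

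The rule for named genes took all 10 receptor genes, the 3 members of each pathway list with the smallest p, all ligands, and the 3 genes with the nearest profile to the 2 receptor genes of smallest p. The receptor genes, lists and markers were chosen with earlier results of these data known.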

Additional observations from a re-analysis of the deposited data

Results flagged for a closer look

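Of 20 groups of 4 libraries (10 receptor genes in 2 groups), 1 held a library far from the others by Dixon's criterion, which chance meets in about 1 of 20 groups. Il6st was at 624 CPM in MIA_Acu 1, while the other MIA_Acu libraries lay at 474 to 485 CPM. MIA_Acu 1 was also the highest of its group in pan-neuronal markers (8224 CPM, against 6769 to 7001 CPM), and without it the log2 fold change of Il6st was -0.27.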

How the results depend on the processing

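Directions of Il1rap, Il6ra, Il6st, Lifr, Osmr, Il31ra and Il4ra were the same in each of 17 alternatives. In 8 libraries 0 receptor genes and 0 of all genes passed in edgeR. By DESeq2 it was 2 (Il6ra, Il4ra) and 1753 genes (9.24%), by limma voom with sample weights 3 (Il1rap, Il6ra, Il4ra) and 2249 genes (11.9%), and with no filter on low counts 0 and 6 genes. In the 6 libraries it was 3 and 1963 genes, and with the 2 unmatched libraries exchanged 1 (Il1rap) and 207 genes (1.09%). With all 8 libraries, limma voom, other size factors and the strict filter gave 0 receptor genes and 0 of all genes. Leaving out each library gave 0 to 2 receptor genes, 0 to 1340 genes overall (the highest of each without MIA 4) and 27 to 54 pathway genes at an unadjusted p under 0.05, against 38. Within the 6 libraries the count of 3 became 5 with no filter, 5 by DESeq2 (Osmr and Il31ra added) and 0 to 6 when each was left out, with 6 without MIA_Acu 1.

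Whether the numbers pair the libraries cannot be told from so few of them. Deviations of same-numbered libraries correlated by 0.07, 0.27 and 0.15. MIA 2 and MIA 5 correlated most with the MIA_Acu library of their own number, whereas MIA 1 correlated most with MIA_Acu 5 (0.15). With the replicate number as a block, 4 receptor genes passed (Il1rap, Il6ra, Osmr and Il31ra, with Il4ra at an adjusted p of 0.0558) and 1486 genes overall. Of the pathway genes said to have risen or fallen in the 6 libraries, Il10rb (adjusted p = 0.0737), Ifnlr1 (0.0831) and Jak1 (0.0648) did not pass with the block.

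Tnfrsf1a turned to -0.037 in the 6 libraries (-0.040 with the block) and to -0.15 with the exchange. Leaving out each library, its log2 fold change ran from -0.028 to 0.197, that of Il1r1 from -0.148 to 0.044 and that of Il17ra from -0.51 to 0.10, none past the threshold. For levels per length, 6 of 10 genes kept their place with the longest transcript. The cause of these changes was not tested. Depth limits the 10 untested ligands.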
